A study of Mus musculus with 4 samples.

Results

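The cytochrome P450 genes encode haem-containing monooxygenases that insert oxygen into sterols, steroid hormones, retinoids, vitamin D, fatty acids, drugs and toxins. Most sit in the endoplasmic reticulum and receive electrons from P450 oxidoreductase, while those of mitochondria receive them from ferredoxin. The liver carries the widest set and the highest amounts, whereas the brain uses a smaller set, which includes the neuronal enzyme that turns cholesterol into an oxysterol able to leave the tissue.

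Members were all probe sets with 1 gene symbol made of Cyp, digits and, where present, a letter and digits. This gave 96 of 45037 probe sets and 71 of 18193 genes. Another 6 probe sets carried a P450 symbol of another form and were not counted. The members were then split into classes selected on their measured signal. A probe set above the median of the array on both replicate 2 arrays was called brain-expressed (19 probe sets of 17 genes). One above the median on both replicate 1 arrays and on neither of replicate 2 was called bright on replicate 1 only (5 probe sets of 5 genes). Another 4 probe sets were above the median on 1 of the replicate 2 arrays, and 68 were dim. Of the members, 55 were at or below the median on all 4 arrays, as were 17542 of all 45037 probe sets. The brain-expressed class held 19.8% of the members and 47.9% of all probe sets. The class bright on replicate 1 only held 5.21% of the members and 5.18% of all probe sets. These levels chose the classes and are given as descriptions. Being above the median of an array does not by itself show that a gene is expressed.

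Total RNA came from hippocampi dissected at postnatal day 2 and was hybridised to 4 Affymetrix arrays. The groups were ZBTB20 knockout hippocampus (2 arrays) and hippocampus of littermates labelled wildtype and control (2 arrays). ZBTB20 is a zinc finger transcription factor, and the study asked which genes depend on it in hippocampal development. The labels give neither the strain, the knockout allele nor the number of animals behind an array. They do not say whether both arrays of a genotype hold different animals, so p-values measure only the spread between these arrays, which may be technical. In the fits below this spread is also borrowed from other probe sets.

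The arrays fell on 2 signal scales that follow the replicate number. The trimmed mean signal was 497.3 on the labelled knockout and 497.5 on the labelled control array of replicate 1, while replicate 2 had 155.7 and 157.5. Spearman's correlation over all probe sets was 0.926 within replicate 1, 0.986 within replicate 2 and 0.818 to 0.832 between arrays of different number. Differences are therefore given within pair 1 (the replicate 1 arrays) and pair 2 (the replicate 2 arrays), each 1 labelled knockout array minus 1 labelled control array, on the scale log2(signal + 32.56), which understates changes of dim probe sets. Zbtb20 itself did not settle the labels, since of its 9 probe sets 3 were lower in the labelled knockout in pair 1, 2 in pair 2 and 0 in both, and directions follow the labels as given. Markers of neurons were bright, with 11 of 11 above the median on both replicate 1 arrays and 10 of 11 on both of replicate 2. Of 16 hepatocyte markers, 14 were above the median on both replicate 1 arrays and 3 on both replicate 2 arrays. In tissue RNA, fewer cells of a type and less RNA per cell cannot be told apart.

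Promoter windows are shown for P450 genes bright on the arrays of replicate 2 and for some bright on replicate 1 only. RefSeq windows (GRCm38.p6, 250 bases before to 50 after a start site) matched 52 of the 71 genes. They were searched on both strands for the TATA box (TATAAA), the GC box (GGGCGG), the CCAAT box (CCAAT) and the nuclear receptor half-site (AGGTCA), of which none overlaps another in the windows printed here. The examples are the sterol enzymes Cyp51 (chr5:4104648-4104947, minus strand) and Cyp46a1 (chr12:108334066-108334365, plus strand) of the brain-expressed class, and the liver enzymes Cyp3a11 (chr5:145879805-145880104, minus strand) and Cyp2e1 (chr7:140763569-140763868, plus strand) of the other class. Each is printed in the direction of the gene, with matches on either strand in capitals.
Cyp51: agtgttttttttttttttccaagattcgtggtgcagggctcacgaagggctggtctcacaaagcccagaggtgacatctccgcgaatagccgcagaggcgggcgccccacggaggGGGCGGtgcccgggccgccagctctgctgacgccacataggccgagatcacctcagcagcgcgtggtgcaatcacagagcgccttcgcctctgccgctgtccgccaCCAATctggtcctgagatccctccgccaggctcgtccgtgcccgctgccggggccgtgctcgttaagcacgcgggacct
Cyp46a1: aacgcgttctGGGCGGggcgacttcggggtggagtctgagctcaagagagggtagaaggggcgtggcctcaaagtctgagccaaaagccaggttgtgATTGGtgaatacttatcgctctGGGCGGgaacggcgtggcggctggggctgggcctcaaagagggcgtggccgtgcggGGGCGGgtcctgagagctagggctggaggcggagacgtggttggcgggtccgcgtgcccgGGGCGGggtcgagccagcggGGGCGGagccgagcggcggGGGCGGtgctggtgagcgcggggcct
Cyp3a11: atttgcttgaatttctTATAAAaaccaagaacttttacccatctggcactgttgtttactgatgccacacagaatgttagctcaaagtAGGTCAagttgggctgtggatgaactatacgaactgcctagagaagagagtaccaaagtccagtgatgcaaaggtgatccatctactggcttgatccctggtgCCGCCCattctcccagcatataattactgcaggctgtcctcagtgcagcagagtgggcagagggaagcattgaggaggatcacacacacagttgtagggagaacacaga
Cyp2e1: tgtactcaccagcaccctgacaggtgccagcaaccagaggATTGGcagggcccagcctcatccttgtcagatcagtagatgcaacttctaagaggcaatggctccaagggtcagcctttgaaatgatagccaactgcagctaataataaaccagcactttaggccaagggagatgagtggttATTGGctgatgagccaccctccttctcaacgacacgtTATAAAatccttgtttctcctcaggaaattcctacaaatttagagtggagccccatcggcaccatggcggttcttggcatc

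The Cyp46a1 window held 6 GC boxes and no TATA box at 70.3% G and C, and the Cyp51 window held 1 GC box at 64.7%. The Cyp2e1 window held a TATA box from position -31 relative to the start, at 49.7% G and C, while the TATA match of Cyp3a11 began at position -234, at 46.3%. Each gene was counted in 1 class, the brightest its probe sets reached in the order brain-expressed, replicate 1 only, split and dim, so Cyp20a1 stands with the brain-expressed genes. Among the brain-expressed genes with a window, 7 of 10 held a GC box and 2 of 10 a TATA box, and the median share of G and C was 60.3%. Among Cyp2c29, Cyp2c70, Cyp2e1 and Cyp3a11, 1 of 4 held a GC box, 4 of 4 a TATA box and 3 of 4 the nuclear receptor half-site, with a median of 42.0% G and C. Over all 27025 windows the GC box was present in 35.9%, the TATA box in 14.2%, the CCAAT box in 37.9% and the half-site in 16.0%, at a median of 52.7% G and C. Over the 52 P450 genes with a window, 20 (38.5%) held a TATA box and 17 (32.7%) a GC box, and among the 35 dim ones 14 held a TATA box and 7 a GC box. The classes were not tested against each other, and a match describes the letters of the window only.

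No P450 probe set passed the test between the labelled groups. The limma fit over all 4 arrays called 0 of 36 members that passed the filter on dim probe sets, beside 0 of 27022 probe sets in all (0.0% called). At an unadjusted p under 0.05 it held 0 members and 5 probe sets in all. Without a block, the gap in scale between the replicates stays in the residual of this fit. For Cyp46a1 the SE was 1.41, against 0.17 with the block, so the fit without it could call little. Blocking on the pair, limma again called 0 of the 36 members (0.0% of all probe sets called), with 1 member and 330 probe sets at an unadjusted p under 0.05. The within-pair values below are thus descriptions of 1 array against 1 array.

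Cyp51, Cyp46a1 and Cyp7b1, enzymes of sterol synthesis and cholesterol turnover, were above the array median on all 4 arrays at their brightest probe sets. Cyp51, the demethylase of lanosterol on the path to cholesterol, had a signal at its brighter probe set of 2312 on the labelled knockout and 2285 on the labelled control array of replicate 1, and of 667.7 and 558.7 on those of replicate 2. At the next probe set Cyp51 had 1315 and 1345 in pair 1, and 350.9 and 256.7 in pair 2. Both probe sets were thus level in pair 1 and higher in the labelled knockout in pair 2, by log2 0.24 and 0.41. The pair 1 value of the brighter one (log2 0.02) changed sign with quantile normalization, and the third probe set was dim on replicate 2, with 64.4 and 60.8. Of 16 other measured genes of the sterol pathway, 0 passed the test, and their median difference was log2 -0.09 in pair 1 and 0.01 in pair 2. They include Hmgcs1, which supplies the substrate of the rate-limiting step, at 0.12 and -0.03, the squalene synthase gene Fdft1 at -0.09 and 0.12, the squalene epoxidase gene Sqle at -0.06 and 0.03, and the farnesyl diphosphate synthase gene Fdps at -0.52 and -0.10.

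Cyp46a1, the neuronal cholesterol hydroxylase, had a signal of 673.6 on the labelled knockout and 739 on the labelled control array of replicate 1, and of 249.5 and 242.8 on those of replicate 2. Its signals lay within log2 0.13 of each other in both pairs. Cyp7b1, the hydroxylase that clears oxysterols and neurosteroids and is known from the hippocampus, had 861.9 and 753.1 in pair 1, and 179.3 and 253.8 in pair 2 at a probe set with the suffix _s_at. At the next probe set Cyp7b1 had 894.6 and 597.7 in pair 1, and 179.9 and 230.7 in pair 2. Both probe sets were higher in the labelled knockout in pair 1 (log2 0.19 and 0.56) and lower in pair 2 (-0.43 and -0.31), so the pairs disagreed in direction at these probe sets. The third probe set of Cyp7b1 was below the median on all 4 arrays, with 55 and 11.3 in pair 1, and 43.3 and 36.8 in pair 2, and was higher in the labelled knockout in both pairs (log2 0.997 and 0.13). Cyp39a1, which hydroxylates the product of Cyp46a1, was at 158.2 and 216 in pair 1, and at 120.7 and 91.2 in pair 2, which also run opposite ways. The mitochondrial sterol hydroxylase gene Cyp27a1 was below the array median on 3 of 4 arrays, with 74.6 and 119 in pair 1, and 69.5 and 76.8 in pair 2 at its brighter probe set. Among 9 other measured genes of oxysterol handling, 7 passed the filter on dim probe sets and were tested, and 0 of the 7 passed the test. The medians over the 9 were log2 0.01 and 0.04. Of these the lipid carrier Apoe was at 0.13 and -1.06, the exporter Abca1 at 0.15 and -0.01, the oxysterol-binding protein gene Osbp at 0.01 and 0.16, and Insig1, the sterol sensor partner, at -0.36 and 0.16.

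The retinoic acid hydroxylase gene Cyp26b1 had the widest pair 1 difference toward the labelled knockout among the 96 P450 probe sets. Its signal was 280.7 on the labelled knockout and 109.6 on the labelled control array of replicate 1, and 135.2 and 186.2 on those of replicate 2. The differences were log2 1.14 in pair 1 and -0.38 in pair 2. Cyp26a1, of the same function, was dim, with 3.3 and 59.4 in pair 1, and 36.2 and 36.6 in pair 2. Of 10 measured genes of the retinoid pathway 6 passed the filter and were tested, and 0 of the 6 passed the test (medians over the 10 of -0.03 and 0.00). The retinol carrier Rbp4, which hepatocytes secrete, was at -1.88 and 0.53, the retinol dehydrogenase gene Rdh10 at 0.20 and -0.03, the retinoic acid-binding protein gene Crabp1 at -0.26 and 0.02, and the retinaldehyde dehydrogenase gene Aldh1a1 at -0.91 and 0.13.

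**Figure D1:**
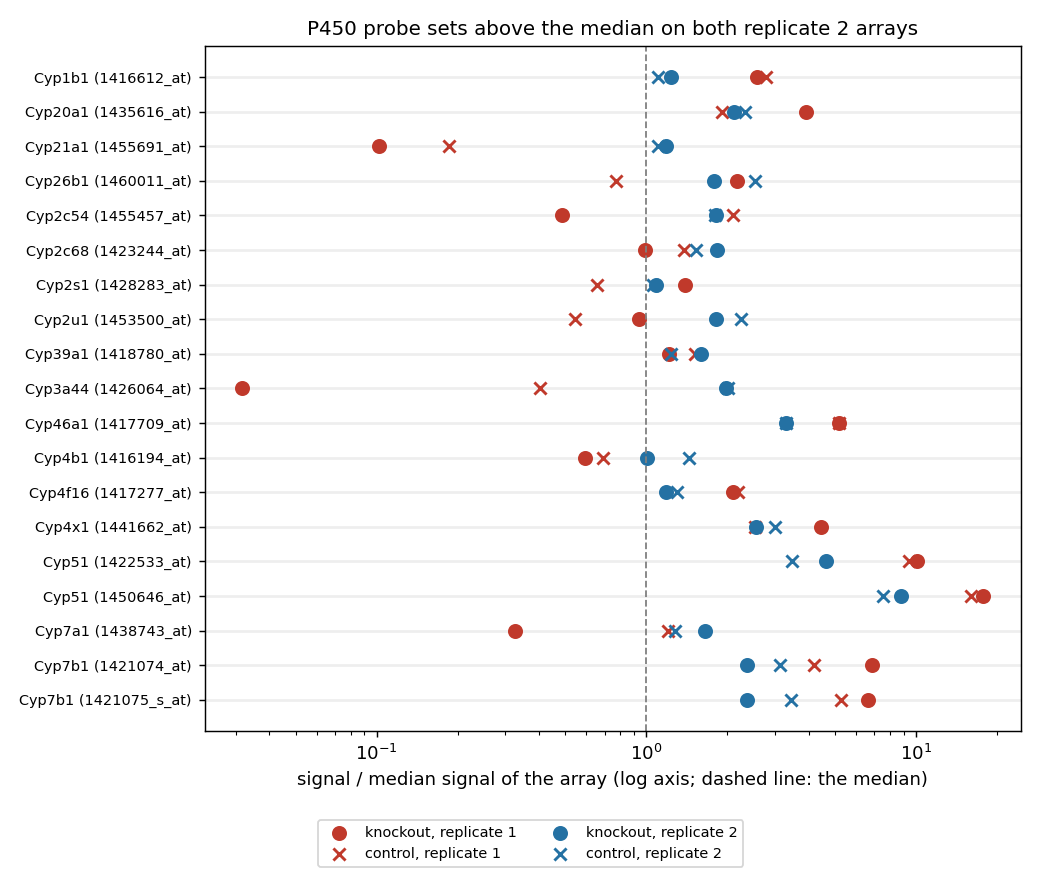
Signal of the 19 brain-expressed P450 probe sets divided by the median signal of the array (log axis), with circles for labelled knockout and crosses for labelled control arrays, red for replicate 1 and blue for replicate 2. Cyp51, Cyp46a1 and Cyp7b1 lie right of the median on all 4 arrays, whereas Cyp21a1 and Cyp3a44 lie left of it on both replicate 1 arrays.

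Several P450 genes of fatty acids and of uncertain substrate were also above the median on replicate 2. Cyp4x1, a family member known from brain, had 579.2 on the labelled knockout and 360.6 on the labelled control array of replicate 1, and 193.7 and 221.7 on those of replicate 2. Cyp20a1, an enzyme with no settled substrate, had 508.7 and 270.9 in pair 1, and 160.4 and 171 in pair 2 at its brightest probe set. Cyp2u1, a fatty acid hydroxylase known from brain and thymus, had 122.5 and 77.7 in pair 1, and 137.7 and 166.3 in pair 2. All 3 were higher in the labelled knockout in pair 1 (log2 0.64, 0.83 and 0.49) and lower in pair 2 (-0.17, -0.08 and -0.22). Cyp4f16, of the fatty acid-oxidising family 4, had 272 and 312.3 in pair 1, and 89.8 and 95.8 in pair 2. Cyp4b1, of the same family, had 76.8 and 98.2 in pair 1, and 76 and 106.5 in pair 2. Both were lower in the labelled knockout in each pair, with log2 differences of -0.18 and -0.07 for Cyp4f16 and -0.26 and -0.36 for Cyp4b1. Cyp2s1, an Ah receptor-inducible enzyme of tissues outside the liver, had 180.4 and 93.3 in pair 1, and 82.6 and 78.5 in pair 2. Cyp2s1 (log2 0.76 and 0.05) and the brighter probe set of Cyp51 were the other 2 of the 4 brain-expressed probe sets with 1 sign in both pairs. Cyp1b1, an enzyme of vascular and meningeal cells that oxidises oestrogens, had 333.9 and 396.8 in pair 1, and 93.4 and 81.3 in pair 2 at its brightest probe set. Its other probe sets were below the median on all 4 arrays. The next had 122 and 98.3 in pair 1, and 28.1 and 20.9 in pair 2. The third had 11.1 and 46.1 in pair 1, and 55.3 and 48.4 in pair 2. Markers of meninges and fibroblasts, which could accompany Cyp1b1, had a median difference of -0.23 in pair 1 and -0.18 in pair 2 over 9 genes. The 9 spread widely, from -1.74 to 0.26 in pair 1 and from -0.40 to 1.36 in pair 2. In pair 1, 3 of the 9 were over 2-fold lower, beside 6.48% of all probe sets. Their part in the Cyp1b1 values was not tested.

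Being bright on replicate 2 did not always hold on replicate 1, and for some members the data went against a label of brain expression. Of the genes given above, Cyp2u1 and Cyp4b1 were below the median on both replicate 1 arrays, Cyp26b1 and Cyp2s1 on that of the labelled control, and the other probe set of Cyp2u1 was below it on all 4 arrays (125.4 and 82.3 in pair 1, and 29.6 and 30.9 in pair 2). Cyp7a1, the rate-limiting liver enzyme of bile acid synthesis, had 42.3 on the labelled knockout and 171.2 on the labelled control array of replicate 1, and 125 and 94.2 on those of replicate 2. Its other probe set had 7.8 and 79.5 in pair 1, and 21.2 and 21.1 in pair 2, so the gene was above the median at 1 probe set and far below it at the other. The adrenal steroid hydroxylase gene Cyp21a1 had 13.2 and 26.4 in pair 1, and 90.1 and 81.5 in pair 2 at 1 probe set, and was dim on all 4 arrays at the other. Cyp3a44, of the drug-oxidising Cyp3a cluster of liver, had 4.1 and 57.5 in pair 1, and 149.9 and 148.7 in pair 2. Cyp2c54, of the Cyp2c cluster, had 63.1 and 298.9 in pair 1, and 137.1 and 133.1 in pair 2, and its neighbour in the family Cyp2c68 had 128.3 and 195.8 in pair 1, and 139.2 and 113.3 in pair 2. Cyp2c68 was thus just below the median on the labelled knockout array of replicate 1 alone. In all, 10 of the 19 brain-expressed probe sets were above the median on both replicate 1 arrays as well: the 2 of Cyp51, the 2 of Cyp7b1 and those of Cyp46a1, Cyp4x1, Cyp20a1, Cyp39a1, Cyp1b1 and Cyp4f16. Of 17 genes with a brain-expressed probe set, 8 had another probe set in another class. The Cyp2c, Cyp2d, Cyp3a, Cyp2j, Cyp4a and Cyp4f genes lie in clusters of near-identical copies that probes may share. Of the 96 members, 6 carried the suffix _s_at and 4 the suffix _x_at, for shared or cross-reacting probes, and 4 carried _a_at.

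At the boundary of the class, Cyp4b1 was 1.002 times the array median on the labelled knockout array and 1.44 times on the labelled control array of replicate 2, Cyp2s1 1.09 and 1.06 times, and Cyp1b1 1.23 and 1.101 times. Just outside it were Cyp2j6, at the brighter of its probe sets on replicate 2, with 0.943 and 0.977 times, Cyp27a1 with 0.916 and 1.04 times and Cyp2d12 with 1.24 and 0.912 times. Members on either side of the line thus differed little in their replicate 2 signal. On replicate 1 they could lie far apart. Cyp1b1 was there at 2.57 and 2.79 times the array median, and Cyp2d12 at 0.043 and 0.037 times. With the 60th percentile in place of the median the class held 12 probe sets, and those of Cyp1b1, Cyp21a1, Cyp2s1, Cyp39a1, Cyp4b1, Cyp4f16 and Cyp7a1 left it.

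P450 enzymes of liver made up 4 of the 5 members bright on replicate 1 only. Cyp3a11, the main Cyp3a enzyme of mouse liver, had a signal of 1480 on the labelled knockout and 4314 on the labelled control array of replicate 1, while replicate 2 had 17.5 and 18.7. Cyp2e1, the ethanol-inducible enzyme of hepatocytes, had 716.4 and 2725 in pair 1, and 36.4 and 30.7 in pair 2. The pair 1 signals were above the median and the pair 2 signals well below it. Cyp2c29, a drug-oxidising enzyme of liver, had 219.9 and 831.8 in pair 1, and 20.3 and 23.5 in pair 2. Cyp2c70, which forms muricholic acids in mouse liver, had 160.9 and 585 in pair 1, and 60.1 and 56.7 in pair 2. The fifth, another probe set of Cyp20a1, had 153.8 and 161.1 in pair 1, and 66.8 and 72.8 in pair 2, close to the median on every array. With the 60th percentile in place of the median, Cyp2c29, Cyp2c70 and Cyp20a1 left this class while Cyp1b1 and Cyp4f16 entered it, so liver enzymes were 2 of 4.

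The 4 liver enzymes had close ratios of labelled knockout to labelled control in pair 1. Their class needs signals above the median on both replicate 1 arrays, so members with a far lower labelled knockout signal could fall outside it. For the 12 members above the median on the labelled control array of replicate 1 alone, ratios ran from 0.019 to 0.709. The signal ratio was 0.263 for Cyp2e1, 0.264 for Cyp2c29, 0.275 for Cyp2c70 and 0.343 for Cyp3a11. In pair 2 their ratios were 1.19, 0.863, 1.06 and 0.933, at signals below the array median. On the log2 scale all 4 were over 2-fold lower in pair 1, where 6.48% of all probe sets were, and 0 of 4 were over 2-fold apart in pair 2. Over 16 hepatocyte markers the median ratio was 0.258 in pair 1 and 1.03 in pair 2. In pair 1, 15 of 16 were lower in the labelled knockout, beside 54.7% of all probe sets. Albumin (Alb) had 15195 and 39309 in pair 1, and 45.2 and 42.2 in pair 2, Ambp had 118.8 and 702.1 in pair 1, and 23.1 and 24.0 in pair 2, and the exception was Ttr, which the choroid plexus also makes. The summed signal of the markers was 98182 on the labelled knockout and 135890 on the labelled control array of replicate 1, and 9851 and 4123 in pair 2. Of these sums Ttr made up 74106 and 62551 in pair 1, and 9232 and 3505 in pair 2. The hepatocyte marker Afp was below the median on all 4 arrays, with 13.7 and 112 in pair 1, and 35.7 and 34.1 in pair 2. The pair 1 ratios of the 16 hepatocyte markers ran from 0.122 (Afp) to 1.18 (Ttr), with Tat, Cps1 and Tdo2 at 0.560, 0.478 and 0.470. Low pair 1 ratios were also found among 9 markers of meninges and fibroblasts, with 0.292 for Dcn, 0.310 for Slc6a13 and 0.340 for Ogn. The median over the 9 was 0.829. The part of hepatocyte or meningeal RNA in the P450 values was not tested.

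**Figure D2:**
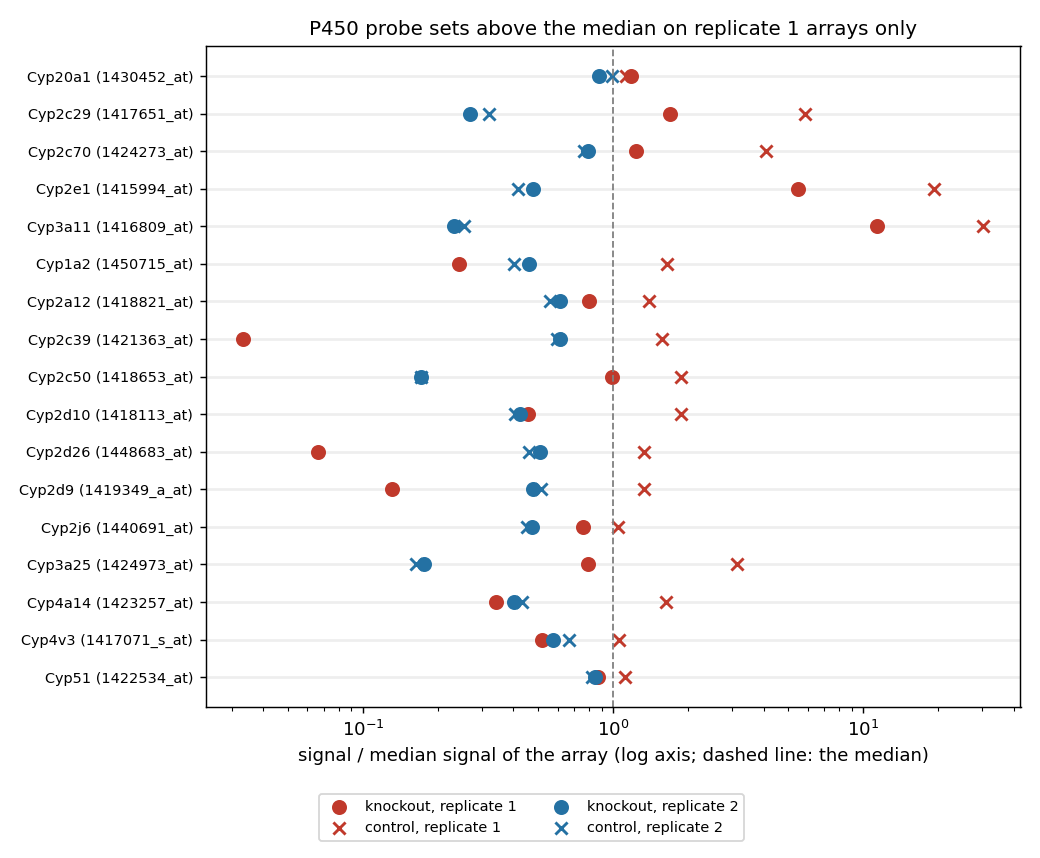
Signal divided by the array median (log axis) for the 5 P450 probe sets bright on replicate 1 only (top rows) and the 12 above the median on the labelled control array of replicate 1 alone (rows below), with symbols for the arrays given in the legend. Cyp3a11 and Cyp2e1 lie far right of the median in both groups of replicate 1 (red) and left of it on replicate 2 (blue).

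A further 12 of the 96 members were above the median on the labelled control array of replicate 1 and on no other. Of all 45037 probe sets, 933 were so. This choice fixes that the 12 members were lower in the labelled knockout in pair 1, and they were named after their values were seen. They include Cyp3a25, with 103.4 on the labelled knockout and 447.5 on the labelled control array of replicate 1, and 13.3 and 12.1 on those of replicate 2. Cyp1a2, a hepatocyte enzyme that oxidises caffeine, had 31.4 and 234.7 in pair 1, and 34.9 and 29.6 in pair 2. Cyp4a14, a fatty acid hydroxylase induced through PPARα in liver, had 44.4 and 231.1 in pair 1, and 30.5 and 31.9 in pair 2. All 12 were within log2 0.12 of equal in pair 2, where the choice fixes that they lay at or below the array median. The median size of their pair 2 difference was log2 0.05, beside 0.06 over all dim probe sets. Such closeness in pair 2 is thus usual for dim probe sets, whose changes the log2 scale used here understates. Cyp2c39 had the widest pair 1 difference among the P450 probe sets, at log2 -2.80 (4.3 and 223.9), and stood at 46.5 and 43.9 in pair 2. The only member above the median on the labelled knockout array of replicate 1 alone was 1 of the 2 probe sets of Cyp2d22. This probe set had 153.1 and 115.6 in pair 1, and 42.8 and 47.6 in pair 2. Of all 45037 probe sets, 763 were above the median on that array alone.

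By role, the widest spread in pair 1 was among the genes of drug and toxin oxidation. Of their 37 probe sets, 27 were lower and 10 higher in the labelled knockout in pair 1, 14 were over 2-fold lower and 0 over 2-fold higher, and the median was log2 -0.65. Over all probe sets 6.48% were over 2-fold lower in pair 1 and 3.63% over 2-fold higher, and of all dim probe sets 11.6% were over 2-fold lower. In pair 2 the median was 0.05 and 0 of 37 were over 2-fold apart. Fatty acid and eicosanoid genes had 2 of 24 probe sets over 2-fold lower (Cyp2j5 and Cyp4a14), a share of 8.33% near that over all probe sets, and medians of -0.22 and -0.01. Those of cholesterol oxidation and bile acids had 2 of 10 over 2-fold lower, both of Cyp7a1, and medians of -0.42 and 0.00. Of the 5 genes of steroid hormone synthesis, Cyp11b1, Cyp11b2 and Cyp17a1 were at or below the median on all 4 arrays, with signals from 7 to 36.3. Cyp11a1, the side-chain cleavage enzyme that opens steroid synthesis, had 101.7 and 213.4 in pair 1, and 88 and 63 in pair 2 at its brightest probe set. Its other probe sets were below the median on all 4 arrays, with signals from 8 to 50.2. All 3 vitamin D genes (Cyp24a1, Cyp27b1 and Cyp2r1) were below the median on all 4 arrays.

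**Figure D3:**
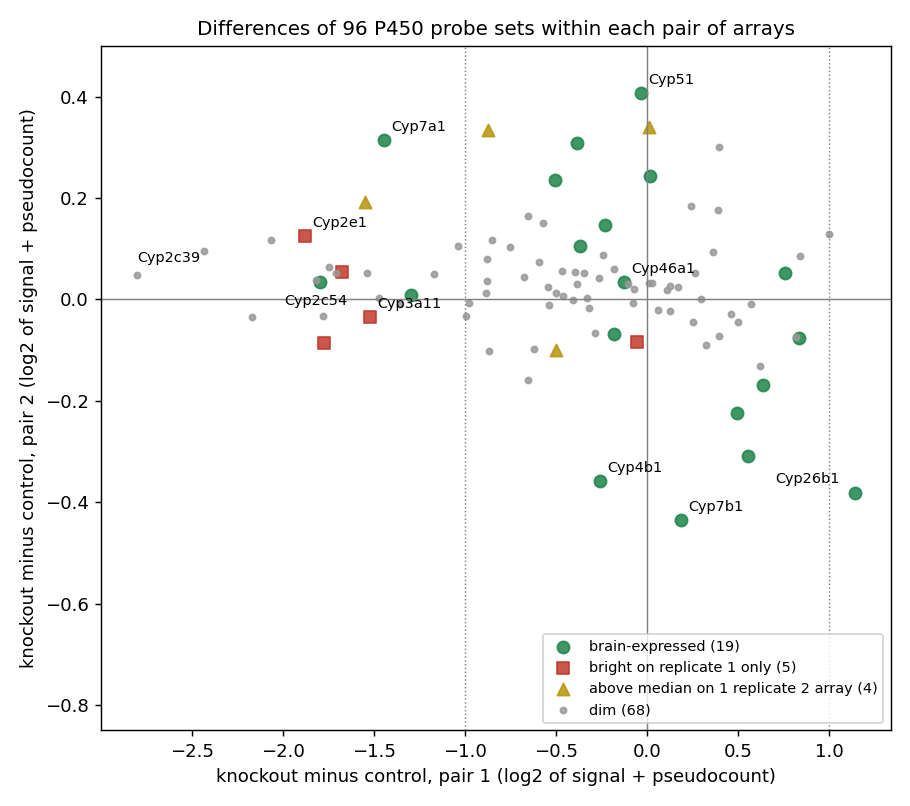
Difference of each of the 96 P450 probe sets in pair 1 (horizontal) and pair 2 (vertical), as labelled knockout minus labelled control on the scale log2(signal + 32.56), coloured by class, with dotted lines at a 2-fold difference. Members spread from -2.80 to 1.14 in pair 1 and from -0.43 to 0.41 in pair 2, where the brain-expressed probe sets hold both extremes.

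Over all 96 P450 probe sets the pairs differed in direction and in spread. In pair 1, 21 were over 2-fold lower in the labelled knockout, where 6.48% of all probe sets were, and 1 (Cyp26b1) was over 2-fold higher, where 3.63% were. Of the 21, 13 were dim, and among all dim probe sets of the array 11.6% were over 2-fold lower, beside 19.1% of the dim members. In pair 2, 0 were over 2-fold lower (0.178% of all probe sets) and 0 over 2-fold higher (0.153%). The median was log2 -0.36 in pair 1 and 0.03 in pair 2, beside -0.05 and 0.02 over all probe sets. Opposite signs in the pairs were found for 61 of 96 members, or 63.5%, beside 53.0% of all probe sets. For the brain-expressed members the share was 15 of 19, and their medians were -0.13 and 0.03, beside -0.003 and 0.02 over all probe sets in that class. Neither any member nor any of the 45037 probe sets was over 2-fold apart in the same direction in both pairs.

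**Figure D4:**
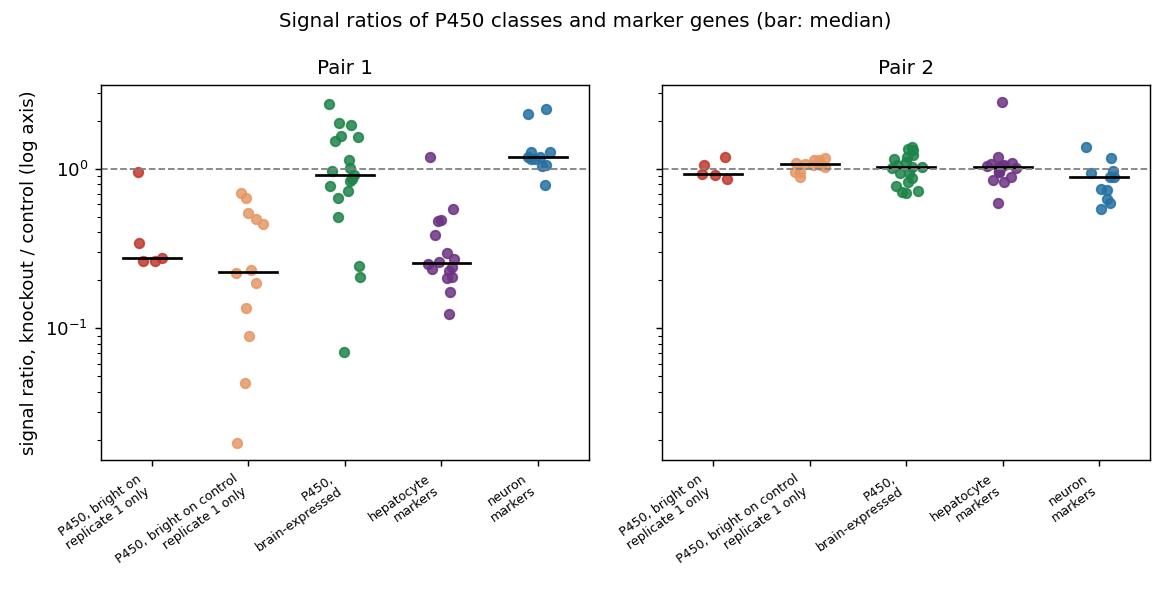
Ratio of signal on the labelled knockout array to that on the labelled control array (log axis) in pair 1 (left) and pair 2 (right) for 3 classes of P450 probe sets and for hepatocyte and neuron markers, with a bar at the median. In pair 1 the medians were 0.275 for P450 bright on replicate 1 only, 0.227 for those bright on control replicate 1 only, 0.911 for the brain-expressed, 0.258 for hepatocyte markers and 1.19 for neuron markers, while in pair 2 all lay between 0.884 and 1.07. The choice of those bright on control replicate 1 only fixes that their pair 1 ratios lie below 1.

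In the blocked limma fit the members with the smallest p toward lower signal were of liver enzymes. Of these, Cyp2c54 was in the brain-expressed class by its replicate 2 signal. Cyp2c29, Cyp3a11, Cyp2e1 and Cyp2c70 were bright on replicate 1 only, so their mean signal, which the filter used, was raised by replicate 1. Cyp2c29 differed by log2 -0.93 ± 0.39 (SE; unadjusted p = 0.0475), Cyp3a11 by -0.78 ± 0.33, Cyp2c54 by -0.88 ± 0.40, Cyp2e1 by -0.88 ± 0.42 and Cyp2c70 by -0.81 ± 0.39. Toward higher signal they were Cyp20a1 at 0.38 ± 0.25, Cyp2s1 at 0.41 ± 0.28, Cyp26b1 at 0.38 ± 0.35, Cyp4x1 at 0.23 ± 0.23 and Cyp51 (the second brightest probe set) at 0.19 ± 0.19. The adjusted p was 0.9999 for each of the 10 in limma's blocked fit and 1.0 without the block. For the 5 on the lower side the mean rests on pair 1, since their pair 2 differences lay between -0.09 and 0.13. Each SE above is moderated by limma with the spread of other probe sets. Over the pairs, the SDs of these 5 differences ran from 1.05 (Cyp3a11) to 1.42 (Cyp2e1).

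The partners and regulators of P450 enzymes did not pass the test either. Of 18 measured genes of electron transfer and haem metabolism 0 passed, and 17 of 18 were above the median on both replicate 2 arrays. Their medians were log2 0.08 in pair 1 and -0.20 in pair 2. The haem-binding protein gene Pgrmc1 was at 0.05 and 0.02, the cytochrome b5 genes Cyb5a at 0.44 and -0.42 and Cyb5b at 0.09 and 0.20, and Alad, of haem synthesis, at -0.33 and -0.12. Fdx1, the ferredoxin that serves the mitochondrial enzymes, had 1167 on the labelled knockout and 1330 on the labelled control array of replicate 1, and 170.4 and 241.6 on those of replicate 2. Of 19 measured receptor genes that regulate P450 genes 9 passed the filter and were tested, and 0 of the 9 passed the test. The Ah receptor gene Ahr was at -0.02 and 0.14, its partner Arnt at -0.31 and 0.12, and the retinoid X receptor genes Rxra at -0.25 and -0.02 and Rxrb at -0.16 and -0.003. The xenobiotic receptor genes Nr1i2 and Nr1i3, named for their role in inducing liver P450 genes, were below the median on all 4 arrays, with signals from 3.6 to 46.1.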

How the data were processed

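The deposited values were signal intensity per probe set on a linear scale, 1 column per array, made by the authors with MAS5 per the submitters' processing notes. Version, scaling target and background settings are not given in the sources used here. Probe sets were named by the platform annotation, with 34945 of 45037 having 1 symbol, 932 several and 9160 none. Signals were transformed as log2(signal + 32.56), the pseudocount being the 20th percentile of all values. All 4 arrays entered limma 3.58.1 (R 4.3.3; lmFit, eBayes with trend, no covariate). It tested the 27022 probe sets whose mean exceeded the 40th percentile, adjusted by Benjamini-Hochberg at 0.05. The fit was also run on simulated data with noise drawn from pair 2 differences. Over all probe sets their median absolute log2 size was 0.089, against 0.298 in pair 1. That run therefore does not cover the spread of pair 1. Residual degrees of freedom were 2, or 1 with the replicate block. Prior degrees of freedom, drawn from all tested probe sets, were infinite, or 5.98 with the replicate block. The number of arrays limits the precision, and so does the gap in scale in the fit without the block.

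Named were every gene with a brain-expressed probe set, up to 15 bright on replicate 1 only, the 5 members per direction with the smallest unadjusted p in the blocked fit, members over 2-fold apart in 1 direction in both pairs (there were 0), 3 on each side of the class boundary and up to 4 genes per list by mean signal. Others were named after their values were seen. Each gene of a list is shown by its probe set with the highest mean log2 signal. Members and lists were chosen with earlier results of these data known. The gene lists were P450 roles, electron donors and haem, receptors, retinoid pathway, sterol synthesis, oxysterol handling and markers of cell types. No label ties a replicate number to a litter or a day. Over probe sets, the deviations from the group means of arrays with 1 number had a correlation of 0.842.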

Additional observations from a re-analysis of the deposited data

How the results depend on the processing

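limma called 0 probe sets and 0 P450 probe sets under each of 13 alternatives: quantile normalization, scaling to 1 trimmed mean, a pseudocount at the 40th percentile, a floor of 1, no filter or a filter at the 60th percentile, 1 probe set per gene, eBayes without trend, the replicate block and leaving out each array. At an unadjusted p under 0.05 these held from 0 to 330 probe sets, the most with the replicate block. With the replicate block, which leaves log2 differences as they are, the smallest adjusted p among P450 members was 0.9999, and it changed no call. The number of brain-expressed P450 probe sets was 12 with the 60th percentile as the boundary, against 19. The median difference of that class, averaged over the pairs, was -0.05 as reported and 0.03 or -0.13 from 1 pair alone. That of the class bright on replicate 1 only was -0.86, and -0.04 or -1.67 from 1 pair alone, so it rests on pair 1. Of the pair differences of the 96 members, quantile normalization turned the sign of 5 in pair 1 (none above log2 0.107 in size) and 8 in pair 2 (none above 0.0176), and scaling to 1 trimmed mean that of 0 and 4. Leaving out 1 array sets arrays of different scale against each other, and the log2 difference then ranged from -0.36 to 1.12 for Cyp20a1 (brightest probe set), -0.52 to 0.38 for Cyp20a1 (bright on replicate 1 only), -0.0384 to 0.85 for Cyp2s1, -0.0721 to 0.83 for Cyp26b1, -0.48 to 0.95 for Cyp4x1, -0.94 to 1.31 for Cyp51 (second brightest probe set), -2.90 to 1.04 for Cyp2c29, -3.98 to 2.42 for Cyp3a11, -3.60 to 1.85 for Cyp2e1 and -2.21 to 0.59 for Cyp2c70. Cyp2c54 (-1.38 to -0.38) kept its sign. None of these fitted differences reversed under an alternative that kept all 4 arrays.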

Other observations

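Markers of other organs that carry P450 enzymes were mostly dim. On both replicate 1 arrays 1 of 5 adrenal cortex, 1 of 6 kidney proximal tubule, 0 of 6 intestine and 0 of 6 lung markers lay above the array median, and on both replicate 2 arrays 2, 0, 2 and 0 did. The adrenal marker above the median on all 4 arrays was Scarb1, a lipoprotein receptor also made by liver, with 772.3 on the labelled knockout and 741.6 on the labelled control array of replicate 1, and 93.7 and 117.3 on those of replicate 2. Star, which feeds cholesterol to steroid synthesis, had 45.8 and 64.9 in pair 1, and 85.6 and 83.1 in pair 2. The oxysterol enzyme gene Ch25h, which is no P450, had 11.3 and 196 in pair 1, and 63.9 and 58.5 in pair 2.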
